A study of Mus musculus with 4 samples.

Results

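The response of wild-type P19 cells to retinoic acid was read from 1 array of undifferentiated cells and 1 array of cells exposed to 10 µM retinoic acid for 4 days, which are 2 of the 4 arrays of the series. P19 is a mouse embryonal carcinoma line, a tumour-derived line with many traits of the early epiblast. The labels name no vector in the wild-type cultures, and the undifferentiated culture had received ethanol, the vehicle of retinoic acid. The sample characteristics list 2 µg/ml doxycycline for both, whereas the growth description gives ordinary culture in DMEM with serum, so the presence of doxycycline in wild-type cells is unsettled, and it is the same on both sides of the comparison. The other 2 arrays came from a P19 clone with the stable vectors pBI-EGFP-FLAG-mCtcfl and pTA-N, which make mouse Ctcfl when doxycycline is absent (Tet-Off). That clone, called the Ctcfl line here, had been without doxycycline for 2 days and was measured with the same vehicle and the same retinoic acid exposure. It is a single clone, so its values are set beside those of wild type without a test of any difference. The members described are all genes with a probe set that carries exactly 1 gene symbol, which were 23521 of 41345 probe sets and gave 22180 genes.

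Retinoic acid is a derivative of vitamin A that enters the nucleus and binds receptors of the RAR family, which sit on DNA as dimers with RXR and activate their targets when the ligand is bound. In the embryo it patterns the hindbrain and trunk, where it activates Hox genes, and its supply is set by enzymes that make it and by Cyp26 enzymes that break it down. Embryonal carcinoma cells leave the pluripotent state in its presence, and P19 cells can form neural and other derivatives depending on dose and on whether they aggregate. The labels give addition to the growth medium and no aggregation step.

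With 1 array on each side there was no replicate, no test was made, and every difference is that of 2 arrays. Where a gene had several probe sets, the one with the highest mean stood for it. The comparison took the 18310 genes whose signal reached log2 6 on any of the 4 arrays. Some genes reached it only on retinoic acid arrays, Hoxc5, Dcn, Lum, Emcn, Pcdhb21 and Pcdhb3 among them, so the filter set their sign upward. The Mir302 genes and Mir290a reached it only on undifferentiated arrays, which set their sign downward. The only error that could be estimated was technical. Probe sets of the same gene differed in their wild-type log2 difference with an SD of 0.3 (from 874 genes), so differences of that size cannot be told from probe noise, and variation between cultures is not covered at all. Olfactory receptor genes, which these cells are not known to express, served as a guide to background: 95% of 1105 of them had a signal below log2 6.95 before treatment and below 6.89 after it. A fold that rests on a signal under these limits is not exact, which applies to the starting signal of 115 genes counted below as higher and to the final signal of 90 counted as lower. It is marked below for only some of them. The starting signals of Meis1, Pcdh7, Dcx, Aldh1a2, Zfp703, Hapln1, Kdr and Dach1, among others, also lay under the limit. The housekeeping gene Gapdh had log2 signals of 13.65 and 13.61, and the actin gene Actb 11.89 and 12.07.

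The undifferentiated cells carried the markers of their label. All 8 embryonal carcinoma markers (Pou5f1, Sox2, Nanog, Utf1, Tdgf1, Fgf4, L1td1 and Lin28a) were above the olfactory receptor limit, with log2 signals from 9.04 to 12.04. In retinoic acid 7 of them were still above it, with Tdgf1 the exception, and 6 were at least 2-fold lower. Their log2 signals in retinoic acid ran from 6.09 to 11.58. The limit does not separate cell types. Of 5 heart muscle markers, 4 were above it on both wild-type arrays, and of 5 measured glial markers 5 before and 4 after. A signal just above it is therefore no sign by itself that a transcript remained. Bulk RNA cannot tell a loss of embryonal carcinoma cells from a lower level of these 8 markers in each cell.

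In all, 473 genes (2.58% of those compared) were at least 2-fold higher in retinoic acid and 479 (2.62%) at least 2-fold lower. The numbers were 107 and 68 at 4-fold, 24 and 16 at 8-fold, and 7 and 5 at 16-fold. The bulk of genes hardly differed: the median difference was log2 -0.04, and 55.2% of genes lay within log2 0.25 of 0. Genes that were higher had a median log2 signal of 7.75 before and 9.43 after, and genes that were lower had medians of 9.36 before and 7.89 after. Over all genes the medians were 8.03 and 8.02. Of the 242 olfactory receptor genes past the filter, 0 were 2-fold apart in either direction (no test was run on these single arrays).

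**Figure D1:**
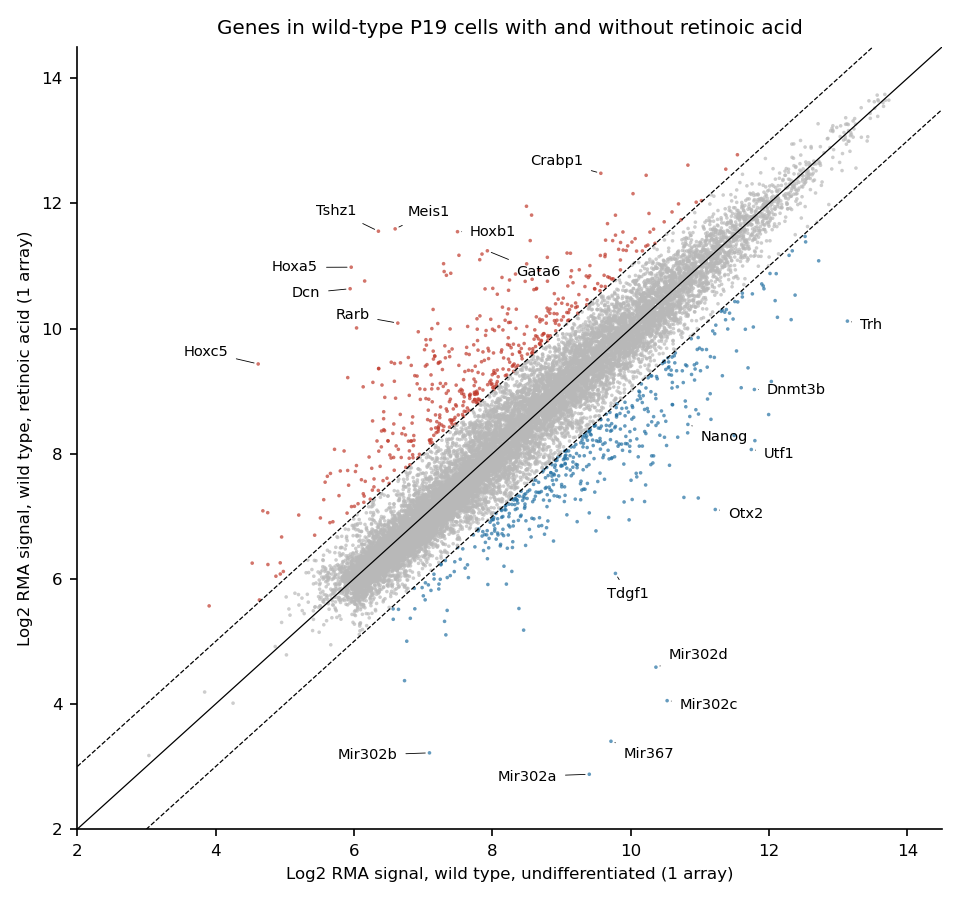
Log2 RMA signal of each of the 18310 genes in undifferentiated wild-type cells (x axis) and in wild-type cells after retinoic acid (y axis), 1 array each, with genes at least 2-fold higher in red, at least 2-fold lower in blue, the line of equal signal solid and the 2-fold lines dashed. Tshz1, Meis1 and Hoxa5 stand furthest above the line, and the Mir302 genes and Otx2 furthest below it.

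Genes that hold retinoic acid in check were among the strongest increases. Cyp26a1 and Cyp26b1 encode the P450 enzymes that oxidise retinoic acid. The signal of Cyp26b1 went from log2 7.82 to 11.1, which is 9.73-fold higher, and that of Cyp26a1 from 7.11 to 9.26, which is 4.43-fold higher. Dhrs3, which turns retinaldehyde back into retinol, had 8.57 without and 11.81 with retinoic acid and was 9.49-fold higher. Enzymes of synthesis were higher as well: Aldh1a2, which makes retinoic acid from retinaldehyde, stood at 6.44 and 8.37 (3.8-fold higher), and Rdh10, which makes the retinaldehyde, at 7.94 and 9.68 (3.35-fold higher). The other enzymes of the list differed by less than 2-fold, among them Aldh1a1 (log2 difference 0.56), Aldh1a3 (-0.14), Cyp26c1 (-0.11) and the retinol esterifying enzyme Lrat (-0.27). Of 16 genes for synthesis and breakdown, 5 were at least 2-fold higher and 0 lower, beside 2.58% and 2.62% of all genes. Their median was log2 0.43. In the Ctcfl line the differences were 3.77 for Cyp26a1, 2.55 for Cyp26b1, 3.67 for Dhrs3, 0.81 for Aldh1a2 and -0.09 for Rdh10.

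Receptors and carriers of retinoic acid were higher or lower by member. Rarb, the receptor gene best known as a direct target of its own ligand, had a log2 signal of 6.63 in undifferentiated cells, within the olfactory receptor range, and 10.09 in retinoic acid, 11-fold higher. Its paralogues Rara and Rarg differed from each other: Rara had a small difference of the same sign, log2 0.41, and Rarg stood at 8.66 and 7.38, 2.43-fold lower. Among the partners, Rxra was 2.03-fold higher (8.06 and 9.08), Rxrg 2.62-fold lower (8.31 and 6.92), and Rxrb differed by log2 -0.33. Both cellular retinoic acid binding proteins were higher. Crabp1 went from 9.57 to 12.48 (7.53-fold) and Crabp2, which hands retinoic acid to RAR, from 10.22 to 12.45 (4.68-fold). Stra6, the membrane receptor that takes up retinol from its plasma carrier, had 8.01 and 10.64 and was 6.22-fold higher. Fabp5, a fatty acid binding protein that also carries retinoic acid, differed by log2 -0.55. Of 12 genes in this list, 5 were higher by 2-fold or more and 2 lower, beside 2.58% and 2.62% of all genes.

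The promoters of Rarb and Cyp26a1 are shown because both carry the element on which RAR and RXR are known to bind, a direct repeat of a 6-base half-site with 5 bases between. The windows run from 250 bases before to 50 after the annotated start in RefSeq on GRCm38.p6, and capitals mark the repeat. The first is at chr14:16575427-16575726 on the minus strand and the second at chr19:37697558-37697857 on the plus strand.
Rarb: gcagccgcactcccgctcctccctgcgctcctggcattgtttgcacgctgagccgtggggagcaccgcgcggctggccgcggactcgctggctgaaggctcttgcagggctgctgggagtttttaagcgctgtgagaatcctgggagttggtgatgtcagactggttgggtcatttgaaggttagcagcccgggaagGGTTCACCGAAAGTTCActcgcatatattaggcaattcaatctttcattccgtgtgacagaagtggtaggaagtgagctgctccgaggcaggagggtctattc
Cyp26a1: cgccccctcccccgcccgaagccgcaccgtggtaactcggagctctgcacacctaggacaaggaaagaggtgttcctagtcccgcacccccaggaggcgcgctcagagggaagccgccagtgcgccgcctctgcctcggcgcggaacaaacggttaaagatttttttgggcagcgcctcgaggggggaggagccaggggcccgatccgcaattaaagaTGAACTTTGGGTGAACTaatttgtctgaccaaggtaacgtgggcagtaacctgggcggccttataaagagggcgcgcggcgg
The search took the half-site AGGTCA, the consensus, with the variant AGTTCA, a further variant GGGTCA, and the last variant, which is GGTTCA, as any pair in the same orientation with 5 bases between, on both strands. In Rarb the repeat reads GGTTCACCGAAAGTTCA along the gene, and in Cyp26a1 it reads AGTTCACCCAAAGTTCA on the strand opposite to the gene. It was found in 10 of 17566 such windows (0.0569%), in 10 of 14149 genes compared here. Of the 344 genes with a window that were at least 2-fold higher, 2 held it, Rarb and Cyp26a1, and of 358 that were at least 2-fold lower 1 did, the biliverdin reductase gene Blvrb, chosen by this search. Blvrb had log2 signals of 9.21 and 8.15. With 1 base between the half-sites, 2 of the higher genes (0.581%) and 1 of the lower genes (0.279%) held a pair. These are the same numbers as with 5, but the pair was more frequent over all genes. It was in 39 of 14149 genes (0.276%) with 1 base, against 10 (0.0707%) with 5. With 2 bases between, 15 of all genes (0.106%) held a pair. Among them were 1 of the higher genes (Slc25a21, a mitochondrial carrier also chosen by this search, log2 difference 1.69) and 1 of the lower genes (Slc7a7, log2 difference -3.2). A match describes the letters in the window and is not a measured binding site.

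**Figure D2:**
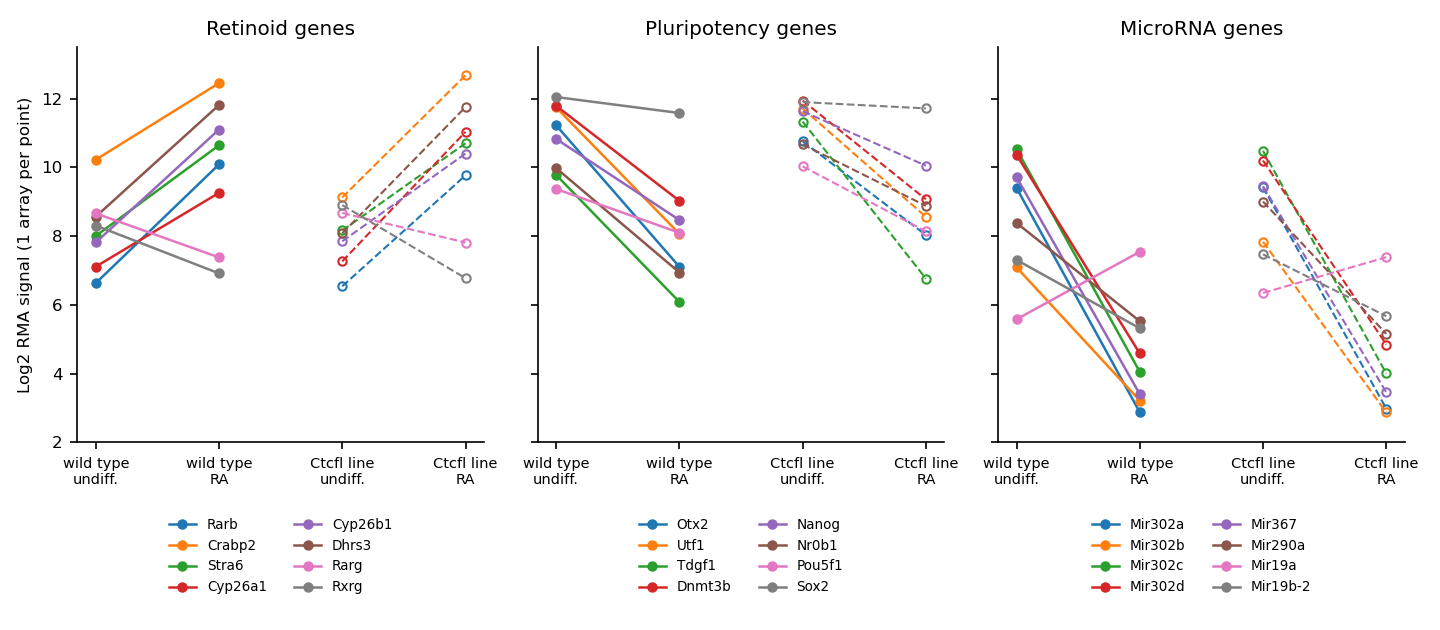
Log2 RMA signal of 8 retinoid genes, 8 pluripotency genes and 8 microRNA genes on the 4 arrays, with solid lines joining the wild-type pair and dashed lines the pair of the Ctcfl line, 1 array per point. In wild type, Rarb, Crabp2, Stra6, Cyp26a1, Cyp26b1 and Dhrs3 are higher in retinoic acid, Rarg and Rxrg lower, and the Mir302 genes end between log2 2.88 and 4.59.

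Hox genes, the homeobox factors that give cells their position along the body axis, were higher mainly at one end of their clusters. Members with low numbers lie at the 3′ end and are the early responders to retinoic acid in the embryo. Of 13 measured genes of paralogue groups 1 to 5, 12 were at least 2-fold higher and 0 lower, with a median difference of log2 2.33. Of 12 genes of groups 6 to 9, 5 were at least 2-fold higher, with a median of 0.95. Of 11 genes of groups 10 to 13, 0 were 2-fold apart in either direction, with a median of -0.05. For so few, 0 is near the 5.2% of all genes. The exception among the first groups was Hoxd1, with log2 signals of 7.53 and 8.12.

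The clusters differed in how far the increases reached. Hoxa5 had the largest difference of the A cluster, from 5.96 to 10.98 (32.5-fold, from a starting signal within the olfactory receptor range), followed by Hoxa2 (6.36 to 9.36), Hoxa3 (6.43 to 8.38) and Hoxa4 (7.33 to 9.12). Beyond these the differences were log2 0.95 for Hoxa6, 0.42 for Hoxa7, 0.02 for Hoxa9, -0.09 for Hoxa10 and -0.05 for Hoxa13. The B cluster reached furthest, with 8 of 10 genes at least 2-fold higher. Hoxb1, the earliest member of that cluster in the embryo, went from 7.5 to 11.55, 16.6-fold higher. Hoxb2, Hoxb3, Hoxb4 and Hoxb5 had differences of log2 2.33, 2.26, 2.78 and 2.75, and Hoxb6, Hoxb7, Hoxb8 and Hoxb9 of 1.71, 0.94, 1.42 and 1.35. At its far end Hoxb13 had 0.64. In the C cluster Hoxc5 went from 4.62, a background-level signal, to 9.43, Hoxc4 from 6.43 to 8.56, Hoxc6 from 6.22 to 7.95 and Hoxc8 from 6.95 to 7.99, while Hoxc9 differed by log2 0.28 and Hoxc10 by -0.41. The D cluster had 1 gene past 2-fold, Hoxd3 (6.85 to 8.59), and the other D genes lay between log2 -0.36 for Hoxd13 and 0.6 for Hoxd1. On the arrays of the Ctcfl line 12, 8 and 0 genes of the same 3 sets of paralogue groups were at least 2-fold higher, where Hoxc8, Hoxc9 and Hoxa9 had differences of log2 2.5, 1.5 and 0.84.

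**Figure D3:**
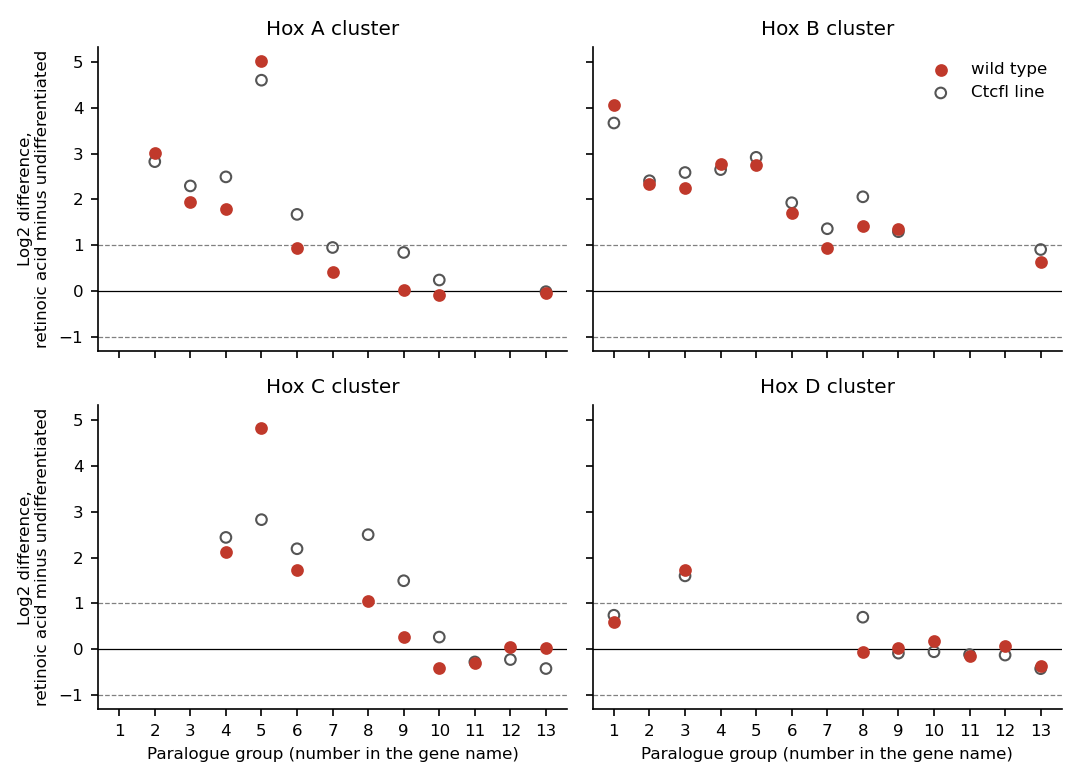
Log2 difference, retinoic acid minus undifferentiated, of each measured Hox gene against its paralogue group, 1 panel per cluster, with filled points for wild type and open points for the Ctcfl line, 1 difference of 2 arrays per point and dashed lines at 2-fold. Groups 1 to 5 lie above the 2-fold line in wild type except Hoxd1, and groups 10 to 13 lie within 2-fold, between -0.41 for Hoxc10 and 0.64 for Hoxb13.

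Partners of Hox proteins differed too. Meis1, a TALE homeobox protein that binds DNA with Hox factors, went from log2 6.59 to 11.59 and was 32-fold higher. That starting signal lay within the olfactory receptor range. Its relatives Meis2 and Meis3 had signals of 8.49 and 11.95 (11-fold higher) and 8.32 and 9.09. In the Pbx family, which pairs with Meis, Pbx2 was 3.03-fold higher (7.58 to 9.18), while Pbx3 and Pbx4 differed by log2 0.07 and -0.24. Among the caudal factors, which activate posterior Hox genes, Cdx1 went from 6.42 to 7.57 (2.22-fold higher), and Cdx2 and Cdx4 differed by 0.07 and 0.0. The same 3 differences were, in the Ctcfl line, 0.61, -1.26 and -1.49.

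Further genes with known retinoic acid responses stood out in size. Tshz1, a teashirt zinc finger factor of the trunk, had the largest increase of all genes, from 6.35 to 11.56 (36.8-fold, starting within the olfactory receptor range), and Tshz3 went from 8.07 to 10.55 (5.57-fold). The related repressors Zfp703 and Zfp503 were 7.24-fold and 3.93-fold higher. Gprc5a, an orphan receptor named for its induction by retinoic acid, went from 6.83 to 9.41. Nrip1, a corepressor recruited by ligand-bound nuclear receptors, was 2.69-fold higher (9.39 to 10.81), and Ret, a receptor of enteric and kidney development, 2.66-fold higher (7.86 to 9.27). Of 22 genes in this list, 9 were higher by 2-fold or more and 0 lower, beside 2.58% and 2.62% of all genes. Their median was log2 0.74. The list was assembled from genes known for this response, so its direction is not independent evidence.

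Orphan nuclear receptors that act on pluripotency genes divided. The COUP-TF genes Nr2f1 and Nr2f2, whose products can repress Pou5f1 and retinoid targets, went from 7.03 to 9.4 (5.16-fold higher) and from 7.11 to 9.82 (6.58-fold higher). Nr0b1, a receptor without a DNA-binding domain that is typical of pluripotent cells, went from 9.98 to 6.94, 8.19-fold lower. Nr6a1, another repressor of Pou5f1, had 9.38 and 9.12, and Nr5a2, an activator of it, 6.99 and 7.89.

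Most genes of the pluripotent state had a difference below 0, and some passed 2-fold. Of 48 such genes, 12 were at least 2-fold lower and 1 was at least 2-fold higher, beside 2.62% and 2.58% of all genes. A difference below 0 was found in 39, and the median was log2 -0.58, beside -0.04 over all genes. Otx2, a homeobox factor of the epiblast and later of the forebrain, went from 11.22 to 7.11 (17.3-fold lower). Utf1, a chromatin protein, stood at 11.74 and 8.07 (12.8-fold lower), and the Nodal coreceptor Tdgf1 at 9.78 and 6.09 (12.9-fold lower). The de novo DNA methyltransferase Dnmt3b had 11.79 and 9.03 (6.78-fold lower), and Dppa2, a chromatin factor, 10.32 and 7.85 (5.54-fold lower). Markers of the primed state were not alike, since Pou3f1 had a difference of log2 -0.98 and Fgf5 of -0.22, both chosen after their values were seen.

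The central transcription factors were lower to unequal degrees. Nanog went from 10.83 to 8.47, 5.13-fold lower, and Pou5f1 from 9.37 to 8.1, 2.41-fold lower. Sox2, which neural progenitors share, had 12.04 and 11.58, a 1.38-fold lower signal. The RNA-binding protein gene L1td1 was 2.98-fold lower (9.04 to 7.47). The single gene of the list past 2-fold upward was Tbx3, a T-box factor that also acts in later tissues, at 8.62 and 9.71. Markers of the naive state had low signals before treatment: Klf4 stood at 7.53, Esrrb at 7.18 and Zfp42 at 6.46, with differences of log2 0.16, -0.13 and -0.31. Lin28a and Sall4, an RNA-binding protein and a zinc finger factor of stem cells, differed by log2 -0.48 and -0.61. Tbx3, Klf4, Zfp42, Lin28a and Sall4 were chosen after their values were seen.

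Most of the Nodal pathway, which maintains the epiblast, differed little apart from its coreceptor. Nodal itself had log2 signals of 9.02 and 9.32, the inhibitors Lefty1 and Lefty2 differences of 0.7 and 0.47, and the receptor gene Acvr2a 0.6. Smad3, an effector, was 2.24-fold higher (9.03 to 10.19), and the ligand Gdf3 stood at 10.89 and 9.89, just short of 2-fold lower. Lefty1 and Lefty2 in the Ctcfl line had differences of log2 4.17 and 2.88 and Tdgf1 of -4.57.

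The largest decreases of all belonged to microRNA genes. The Mir302 cluster, whose microRNAs act in pluripotent cells and target cell cycle inhibitors, holds Mir302b, Mir302c, Mir302a, Mir302d and Mir367 within 580 bases at chr3:127545228-127545807 (GRCm38.p6). The mature forms in RefSeq are shown with the seed, bases 2 to 8, in capitals, because the seed decides which transcripts a microRNA recognises. Mature 3p forms of 4 of these 5 hairpins, and 1 of Mir290a from a second pluripotency cluster, were in the table.
miR-302b-3p: uAAGUGCUuccauguuuuaguag
miR-302d-3p: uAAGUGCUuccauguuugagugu
miR-302c-3p: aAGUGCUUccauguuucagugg
miR-367-3p: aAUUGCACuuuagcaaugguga
miR-290a-3p: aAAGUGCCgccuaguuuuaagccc
The first 2 share the seed AAGUGCU. The RefSeq entry of miR-302c-3p starts 1 base further along, so that bases 2 to 8 read AGUGCUU, and miR-367-3p has a seed of its own. Mir302a is named only.

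In undifferentiated wild-type cells Mir302a had a log2 signal of 9.4, Mir302c 10.53, Mir302d 10.36 and Mir367 9.71, and in retinoic acid the 4 signals were 2.88, 4.05, 4.59 and 3.4. Mir302b went from 7.09 to 3.22. All 5 thus ended under 4.69, the median of the olfactory receptor genes after treatment, and their folds, from 14.7 for Mir302b to 92.1 for Mir302a, are not exact. The 2 arrays of the Ctcfl line gave the same picture, with differences from log2 -4.96 for Mir302b to -6.47 for Mir302c. Larp7, looked up because its span holds the cluster, had 11.04 and 10.72, a difference of log2 -0.32. The long non-coding RNA gene Gm51018 also spans the cluster and was not measured. Which transcript carries the hairpins was not tested. Mir290a, of the cluster typical of naive stem cells, went from 8.38 to 5.53, 7.25-fold lower. It ended within the olfactory receptor range, so this fold is not exact either. A probe set for a microRNA gene reads RNA from that locus and does not separate the precursor from the mature form. Of 274 microRNA genes past the filter, 10 were lower by 2-fold or more and 6 higher, with a median of log2 0.03, so the counts lay near the 2.62% and 2.58% of all genes.

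A pair of related microRNA clusters, chosen after their values were seen apart from the Mir17 genes, were opposite in sign. The Mir17 cluster on chromosome 14 and the Mir106a cluster on the X chromosome hold hairpins of the same families, as a comparison of their members shows.
miR-19a-3p (Mir19a, chromosome 14): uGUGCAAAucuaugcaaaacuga
miR-19b-3p (Mir19b-2, X chromosome): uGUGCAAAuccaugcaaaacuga
miR-18a-5p (Mir18, chromosome 14): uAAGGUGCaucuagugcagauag
miR-18b-5p (Mir18b, X chromosome): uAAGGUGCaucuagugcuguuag
Capitals again mark bases 2 to 8, which are the same within each pair. The same mature miR-19b-3p also comes from Mir19b-1 on chromosome 14, which is not among the measured hairpins. Mir19a went from 5.58 to 7.54 (3.9-fold higher) and Mir19b-2 from 7.31 to 5.32 (3.97-fold lower). The start of Mir19a and the end of Mir19b-2 lay within the olfactory receptor range, so both folds are not exact. Mir18 stood at 7.58 and 8.59 (2.02-fold higher) and Mir18b at 9.0 and 7.47 (2.89-fold lower). The other measured hairpins of chromosome 14, Mir17 and Mir20a, had differences of log2 1.08 and 0.98, and those of the X chromosome, Mir363, Mir92-2 and Mir20b, of -1.08, -0.84 and -0.74. The starts of Mir17 and Mir20a lay within the olfactory receptor range, as did both wild-type signals of Mir92-2 and Mir20b. For the Ctcfl line the 4 genes of chromosome 14 had differences from 0.37 for Mir17 to 1.04 for Mir19a, and the 5 of the X chromosome from -1.8 for Mir19b-2 to -0.77 for Mir92-2.

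FGF signalling genes, which act downstream of pluripotency factors, were lower in some ligands and feedback inhibitors, with 18 of 23 within 2-fold. The ligand genes Fgf4 and Fgf15 went from 9.4 to 7.82 (2.97-fold lower) and from 9.99 to 8.21 (3.45-fold lower). Spry4, a feedback inhibitor, had 10.11 and 7.95 (4.47-fold lower), Etv5, an ETS factor induced by FGF, 10.95 and 9.45 (2.85-fold lower), and the phosphatase gene Dusp4 10.59 and 9.26 (2.52-fold lower). Other ligands and inhibitors differed little, such as Fgf8 (log2 -0.16), Fgf5 (-0.22), Spry1 (-0.23) and Dusp6 (-0.22). The receptor genes Fgfr1, Fgfr2, Fgfr3 and Fgfr4, named like these 4 after their values were seen, had differences of log2 0.23, 0.24, 0.5 and 0.42. Of 23 genes, 5 were at least 2-fold lower and 0 higher, beside 2.62% and 2.58% of all genes.

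Neural progenitor genes were higher in part, and the list of anterior patterning was mixed. Of 37 progenitor genes, 7 were at least 2-fold higher and 3 lower, beside 2.58% and 2.62% of all genes. Their median was log2 0.5. Pax6, a regulator of the neural tube and eye, went from 7.25 to 9.47 (4.66-fold higher), Irx3, an Iroquois factor of the neural tube, from 7.78 to 10.16 (5.2-fold higher), and Sox1, an early neural plate marker, from 7.12 to 8.39 (2.43-fold higher). The dorsal factors Msx2 and Pax3 were 3.45-fold and 2.2-fold higher. The zinc finger genes Zic2 and Zic5, active in epiblast and anterior neural plate, were lower, from 9.99 to 8.12 and from 9.72 to 7.92. Fabp7, a radial glia protein, was 3.07-fold lower (9.67 to 8.05).

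Among the forebrain and midbrain factors, Hesx1, a homeobox repressor of the anterior epiblast, went from 6.76 to 5.0, both within the olfactory receptor range. Fezf1 was 1.94-fold lower (7.99 to 7.03), and Wnt1, a signal of the midbrain and dorsal neural tube, 2.12-fold higher (7.79 to 8.87). Six3 and Otx1 differed by log2 -0.2 and -0.17. Of the hindbrain and cord list, Gbx2, the antagonist of Otx2 at the midbrain border, had a difference of log2 0.9, and Egr2, a marker of hindbrain segments and also an early response gene, stood at 8.2 and 7.1 (2.13-fold lower).

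Genes of later neural stages are given by their counts. Of 17 proneural factors, 0 were higher by 2-fold or more and 0 lower, which is near the 2.58% and 2.62% of all genes for so few, and their differences lay between log2 -0.62 for Neurog3 and 0.58 for Ebf1. The neurogenic factors Neurog2 and Neurod1 had differences of 0.2 and 0.13. Of 34 neuron genes, 6 were lower by 2-fold or more and 2 higher, beside 2.62% and 2.58% of all genes. A difference below 0 was found in 28, and the median was log2 -0.36, beside -0.04 over all genes. The intermediate filament gene Ina went from 10.67 to 9.07 (3.04-fold lower), the synaptic gene Snap25 from 8.78 to 7.46 (2.49-fold lower), and the synaptic vesicle gene Syt1 from 8.9 to 7.78 (2.17-fold lower). Dcx, a microtubule protein of migrating neurons, went the other way, from 6.4 to 8.11 (3.28-fold higher), as did Dpysl3, a growth cone protein, from 8.93 to 10.23 (2.46-fold higher), although its probe set of lower mean gave a log2 difference of -0.16. Of 12 glial genes, the glutamate transporter Slc1a3, which other progenitors also express, was 4.68-fold lower (10.49 to 8.26), and Gfap and Olig1 differed by log2 0.05 and 0.1.

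Several neural crest genes were higher. Of 21, 8 were higher by 2-fold or more and 0 lower, with a median of log2 0.55, beside 2.58% of all genes higher, although Ret and Crabp1 are counted among the retinoic acid genes as well. Ednrb, the endothelin receptor needed by crest-derived melanocytes and enteric neurons, went from 7.29 to 11.04 and was 13.4-fold higher. The transcription factor gene Twist1, active in crest and mesenchyme, had 7.17 and 9.56 (5.23-fold higher). Sox9 was 2.13-fold and Snai2 2.09-fold higher, while Sox10, of later crest, differed by log2 0.04. The values of the Ctcfl line were log2 3.53 for Ednrb, -0.26 for Twist1 and 2.03 for Sox9.

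Some factors of paraxial, intermediate and lateral plate mesoderm were higher, while 19 of the 27 genes of streak and mesoderm were within 2-fold. Osr1, of intermediate mesoderm, went from 7.13 to 10.0 (7.33-fold higher), Meox1, of the somites, from 7.05 to 9.73 (6.45-fold), and Foxf1, of lateral plate, from 7.13 to 9.11 (3.93-fold). Lhx1, of intermediate mesoderm and spinal neurons, was 3.83-fold higher (8.09 to 10.03), and Kdr, the VEGF receptor of vascular progenitors, 3.14-fold higher (6.84 to 8.49). Eomes, a T-box factor of the streak, was 2.13-fold lower (8.36 to 7.26). Others of the same territories differed little, such as Tbx6 of paraxial mesoderm (log2 0.03), Pax2 of intermediate mesoderm (0.51) and Hand1 of lateral plate (0.08). Of the streak genes, Mesp1 differed by log2 0.53, Mixl1 by -0.19 and Gsc by -0.01. These 6 were chosen after their values were seen. The count was 7 of 27 at least 2-fold higher and 1 lower, beside 2.58% and 2.62% of all genes. The differences of Osr1, Foxf1 and Kdr in the Ctcfl line were log2 0.64, 0.14 and 0.11.

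Endoderm genes were higher in a few members by a large amount. Gata6, a zinc finger regulator of primitive endoderm and heart, went from 7.93 to 11.24 (9.95-fold higher), and Foxa1, a pioneer factor of endoderm, from 7.4 to 10.88 (11.2-fold higher). Nepn, a small leucine-rich proteoglycan of gut endoderm, had 6.15, within the olfactory receptor range, and 10.76, 24.3-fold higher. Dab2, an adaptor protein of primitive endoderm, was 2.55-fold higher (8.89 to 10.24), and Ttr, a thyroid hormone carrier of visceral endoderm, 2.41-fold higher (7.68 to 8.95). Sox7 stood at 6.83 and 7.77. Of 28 genes, 5 were at least 2-fold higher and 0 lower, beside 2.58% and 2.62% of all genes. The median was log2 0.2. Of the 7 primitive endoderm markers, 4 were above the olfactory receptor limit before and 7 after. Their summed log2 signals were 52.75 and 60.21. Among them Gata4, Sox17 and Afp, named after their values were seen, differed by log2 0.21, 0.15 and 0.23. That is less than the technical SD of 0.3, and Sox17 and Afp crossed the limit by such small differences. The part of the 7 markers in other differences was not tested.

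Markers of other cell types are given by their counts. Of 14 heart muscle genes, 0 were higher by 2-fold or more and 0 lower, with Tnnt2 at 7.66 and 7.76 and Nkx2-5 at 8.98 and 8.81 (single arrays, with no test), beside 5.2% of all genes 2-fold apart, so 0 of so few is near that share. Of 5 blood markers, 4 were within the olfactory receptor range in retinoic acid. Most markers of the other types were above the limit there. These were 7 of 8 for neuron, 4 of 5 measured for glia and 4 of 5 for trophoblast. For heart muscle they were 4 of 5, for endothelium 4 of 4 and for fibroblast 7 of 7. Passing the limit thus does not mark a cell type. Among smooth muscle genes the calponin Cnn1 was 3.34-fold lower (10.33 to 8.59), while Tpm1, Tagln and Myl9 were 2.3-fold, 2.07-fold and 2.05-fold higher. The mucin gene Emcn of endothelium went from 4.95 to 6.67, both within the background range.

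The cadherins Cdh1 and Cdh2 differed in opposite directions, while other genes of epithelium and mesenchyme went both ways. Of 23 genes of trophoblast and simple epithelium, 11 had a difference above 0 and 12 below. Of 24 genes of mesenchyme, 18 were above 0 and 6 below, where Dcn and Lum were among the 18 through the filter. Cdh1, the epithelial cadherin, went from 10.96 to 9.67 (2.46-fold lower), and Cdh2, the cadherin of neural and mesenchymal cells, from 10.6 to 11.86 (2.41-fold higher). Epcam, an epithelial adhesion protein, stood at 10.91 and 9.92, just short of 2-fold lower. Pcdh7, a protocadherin outside the clusters, was 8.03-fold higher (6.36 to 9.36), Cdh6 3.83-fold higher and Cdh11 2.32-fold higher, whereas Cdh10 was 3.41-fold lower (9.69 to 7.92). The epithelial proteins of the cytoskeleton did not follow Cdh1. Krt8 and Krt18, keratins of simple epithelium, were 2.87-fold and 1.98-fold higher (9.63 to 11.15 and 9.41 to 10.39), and the desmosomal plaque gene Dsp went from 8.25 to 10.78 (5.77-fold higher). Gata3, of trophoblast and several later tissues, was 2.75-fold higher, and Cdx2, which also marks trophoblast, differed by log2 0.07.

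Matrix genes were higher in part, with no laminin gene past 2-fold. Of 25 genes of laminins and matrix, 11 were higher by 2-fold or more and 0 lower, with a median of log2 0.58. Over all genes 2.58% were higher and 2.62% lower, with a median of -0.04. Dcn and Lum are among the 11 and reached log2 6 only on retinoic acid arrays, so the count is in part set by the filter. The laminin genes lay between log2 -0.7 for Lama4 and 0.58 for Lama1, with Lamc1 at -0.45 and Lamb1 at -0.33, all named after their values were seen. The proteoglycan Dcn had 5.94, within the olfactory receptor range, and 10.64, 25.9-fold higher. Npnt, an integrin ligand of basement membranes, went from 7.52 to 11.17 (12.6-fold higher), and the adhesion proteins Flrt2 and Flrt3 from 6.58 to 9.16 and from 7.04 to 9.82. Hapln1, a link protein of hyaluronan, and Fbn2, a fibrillin, were 4.88-fold and 4.63-fold higher. Of 20 collagen genes 17 were within 2-fold. Col12a1 and Col2a1, the latter of cartilage and notochord, were 3.66-fold and 3.05-fold higher, while Col1a1 and Col3a1 of fibroblasts differed by log2 -0.61 and 0.22. The fibroblast marker Thy1 was 2.82-fold lower (9.14 to 7.65), and Lum, a second fibroblast proteoglycan, went from 5.2 to 7.02, which starts below the background limit. In the Ctcfl line Flrt2, Hapln1 and Nepn had differences of log2 0.0, 0.38 and 1.64, and Npnt and Flrt3 of 3.05 and 3.01.

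**Figure D4:**
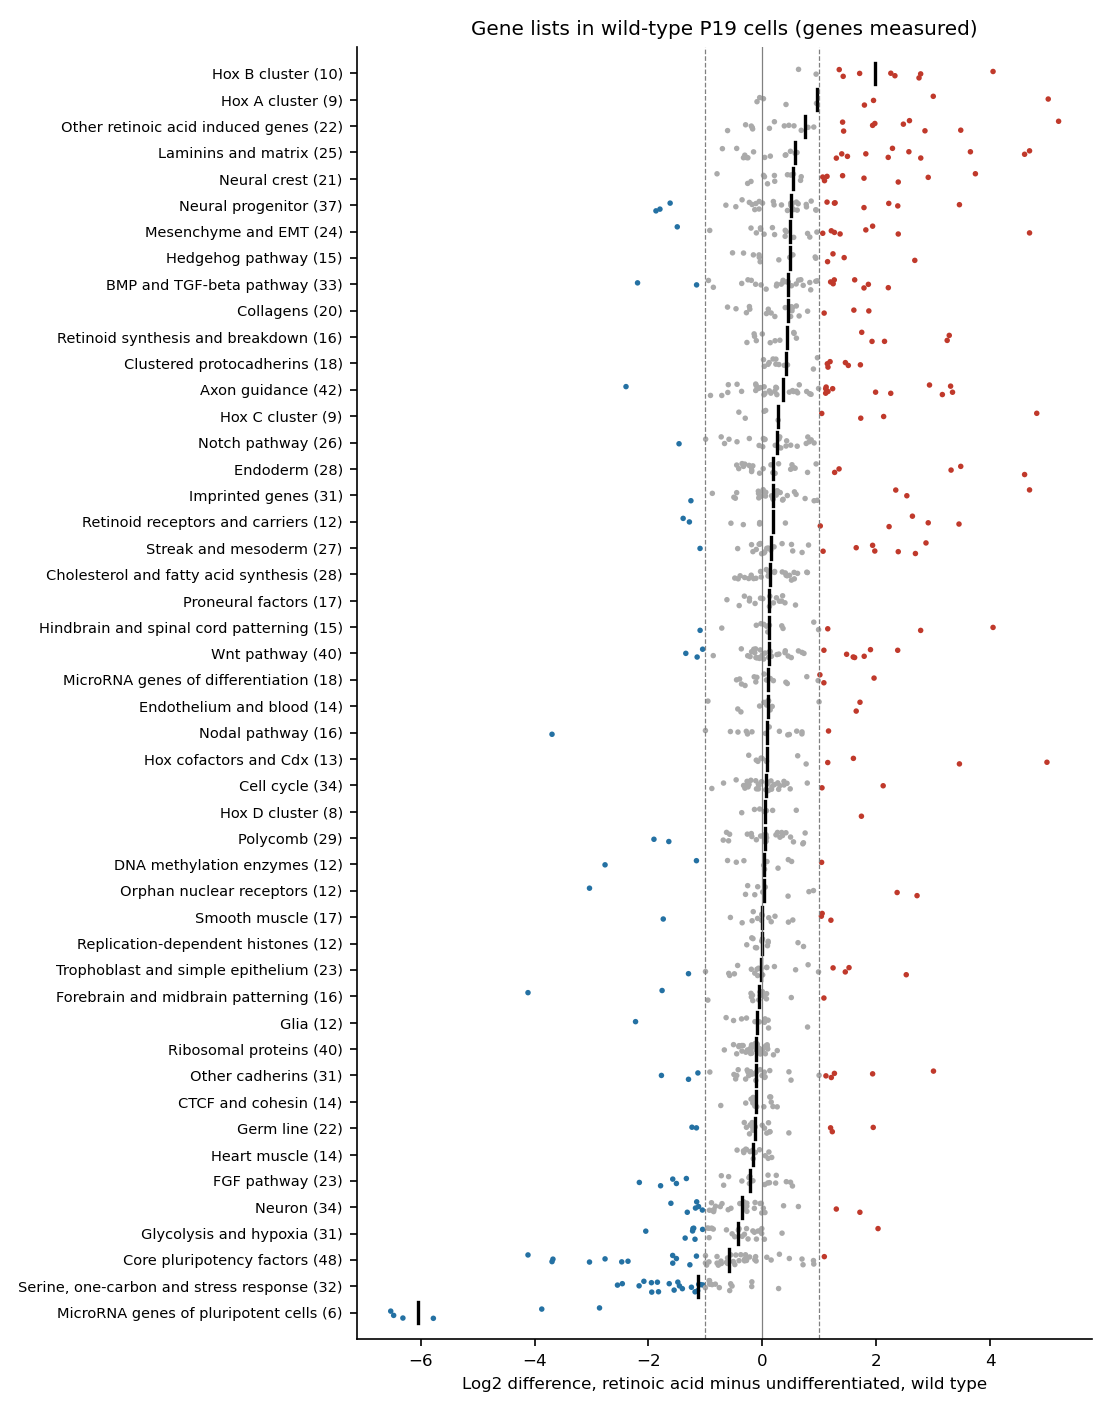
Log2 difference, retinoic acid minus undifferentiated, in wild-type cells for each measured gene of the 48 lists, with the number of genes past the filter in brackets, a bar at each median, and points in red or blue where a gene is at least 2-fold higher or lower. The lists of pluripotency microRNA genes and of serine, one-carbon and stress response have the lowest medians, and Hox B the highest.

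Signalling pathways of the embryo showed higher receptors and ligands of several families. In the BMP pathway, which patterns dorsal and posterior tissue, the ligands Bmp4, Bmp7 and Gdf11 were 4.63-fold, 3.08-fold and 3.64-fold higher, with Bmp4 going from 8.58 to 10.79. The receptor gene Bmpr2 was 2.37-fold and the inhibitory Smad6, a BMP target, 2.4-fold higher. Fst, which binds and blocks activins, was 4.57-fold lower (11.15 to 8.96). Of 33 genes, 7 were at least 2-fold higher and 2 lower, beside 2.58% and 2.62% of all genes.

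In the Hedgehog pathway 4 of 15 genes were at least 2-fold higher and 0 lower, beside 2.58% and 2.62% of all genes. The coreceptors of the ligand differed most. Gas1, Cdon and Boc, which bind Hedgehog at the cell surface, went from 8.14 to 10.82 (6.4-fold higher), from 9.41 to 10.84 (2.71-fold) and from 8.39 to 9.63 (2.36-fold). The effector Gli2 was 2.21-fold higher, while the target genes Gli1 and Ptch1 had differences of log2 -0.33 and -0.52 and the ligand Shh stood at 6.13 and 6.62, within the background range. In the Ctcfl line Gas1, Cdon and Boc had 2.32, 1.98 and 1.9.

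Wnt pathway genes were higher and lower, 7 of 40 at least 2-fold higher and 3 lower, beside 2.58% and 2.62% of all genes. The receptor genes Fzd8 and Fzd2 were 5.2-fold and 3.02-fold higher and Fzd5 2.54-fold lower. The antagonists Frzb and Dkk1 went from 6.58 to 8.48 and from 7.06 to 8.54, the stem cell receptor Lgr5 from 7.08 to 8.87 (with a log2 difference of -0.045 for its probe set of lower mean), and the non-canonical ligand Wnt5a from 7.07 to 8.7. In the Notch pathway the ligand Jag1 was 2.76-fold lower (10.04 to 8.58). No gene of 26 was at least 2-fold higher, which for so few is near the 2.58% of all genes, with Dll1 at log2 0.86 and Hes1 at 0.77.

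Axon guidance genes, many of which also steer crest and vessels, were higher in 11 of 42 cases at 2-fold and lower in 1. The shares over all genes were 2.58% and 2.62%. Receptors of class 3 semaphorins differed by member. Plxna2 went from 7.85 to 11.19 (10.1-fold higher), Nrp1 from 6.13 to 9.07 (7.65-fold, starting within the background range) and Nrp2 from 7.42 to 9.67 (4.77-fold), while Plxna1, Plxna4 and Plxnd1, chosen after their values were seen, had differences of log2 0.03, 0.12 and 0.15. Their ligands Sema3d and Sema3c had 5.91 and 9.22 and 7.9 and 9.89. Robo2, the receptor of Slit proteins, was 8.95-fold higher (7.14 to 10.31). The single decrease at 2-fold was Epha1, an ephrin receptor, from 10.08 to 7.69 (5.25-fold lower).

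Genes of amino acid supply had the largest share of lower members among the 48 lists after the pluripotency microRNA genes. The list joins serine and one-carbon synthesis with the integrated stress response, in which Atf4 induces amino acid enzymes and transporters. Of its 32 genes, 19 were at least 2-fold lower, 0 were higher and 31 had a difference below 0, with a median of log2 -1.13. Across all genes 2.62% were at least 2-fold lower and the median was -0.04.

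Transporters were among the members with the largest differences. Slc7a3, which imports cationic amino acids, went from 11.6 to 9.05 (5.83-fold lower), the cystine exchanger Slc7a11 from 8.28 to 6.12 (4.48-fold, ending within the background range), the neutral transporter Slc1a4 from 12.12 to 10.18 (3.84-fold), and the large neutral exchanger Slc7a5 from 12.72 to 11.08 (3.11-fold). So were enzymes. Mthfd2, of mitochondrial one-carbon metabolism, had 11.33 and 9.25 (4.23-fold lower), Asns, which makes asparagine, 12.38 and 10.53 (3.59-fold lower), and Cth, of cysteine synthesis, 10.79 and 8.84 (3.86-fold lower). Psat1 and Psph of serine synthesis were 2.27-fold and 2.2-fold lower, and Phgdh, its first enzyme, 1.69-fold lower. The stress factors Chac1, Ddit4, Ddit3 and Trib3 were 5.5-fold, 3.54-fold, 2.93-fold and 2.37-fold lower, and Atf4 itself went from 10.02 to 9.02. Psat1, Psph, Phgdh, Ddit3, Slc7a5, Trib3 and Atf4 lie outside the 8 largest differences of the list and were chosen after their values were seen.

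In the Ctcfl line the list had a median difference of log2 -0.25, with 3 genes at least 2-fold lower. Chac1 had signals of 8.65 undifferentiated and 8.02 in retinoic acid in that line, against 10.09 and 7.63 in wild type. Slc1a4 had 10.71 and 10.49 in the line, against 12.12 and 10.18. For Cth the line gave 10.32 and 8.31, a difference of -2.02 beside -1.95 in wild type. The array of undifferentiated wild-type cells was thus the highest of the 4 for Chac1, Slc1a4 and Cth. Without a replicate, a difference between the lines and a difference between single cultures cannot be told apart.

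**Figure D5:**
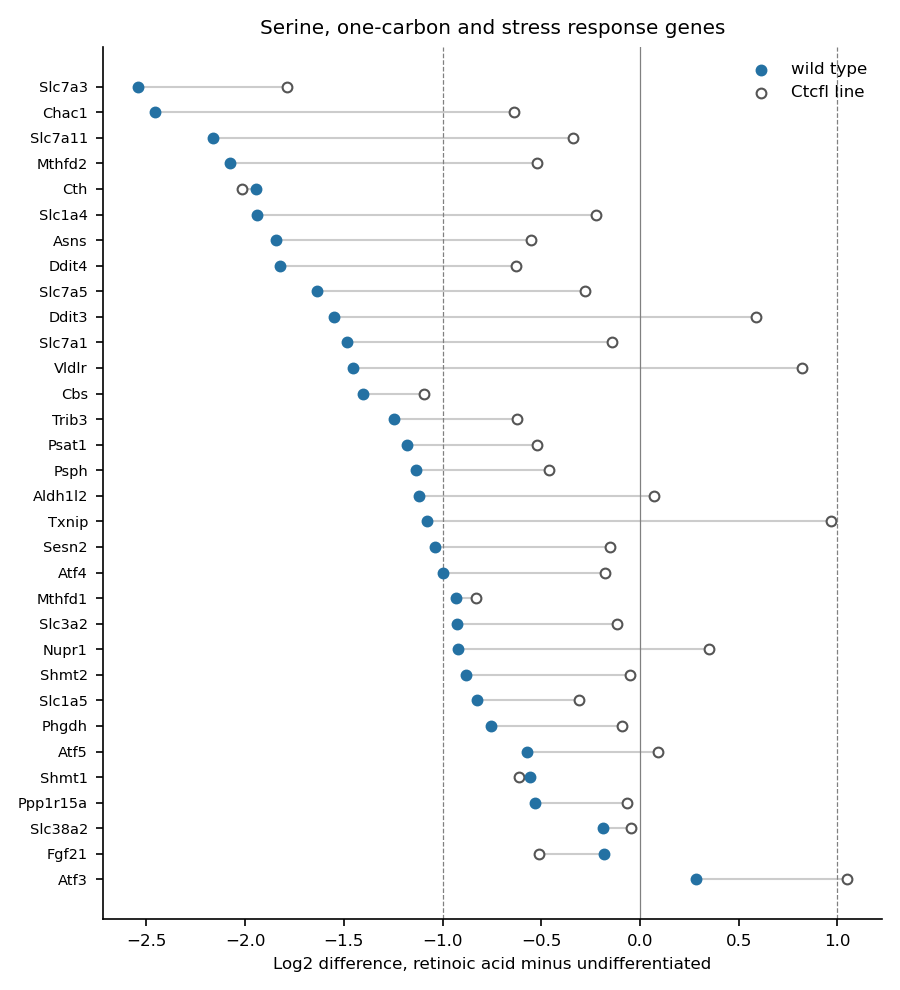
Log2 difference, retinoic acid minus undifferentiated, of the 32 measured genes of serine and one-carbon synthesis and the stress response, with filled points for wild type and open points for the Ctcfl line, each a difference of 2 arrays, and dashed lines at 2-fold. In wild type 31 of 32 points lie below 0 and 19 at or beyond 2-fold, and in the Ctcfl line most points lie closer to 0.

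Glycolysis and hypoxia genes were lower too, 7 of 31 by at least 2-fold, beside 2.62% of all genes. A difference below 0 was found in 28, and the median was log2 -0.42, beside -0.04 over all genes. The 3 phosphofructokinase genes Pfkp, Pfkl and Pfkm were 4.13-fold, 2.3-fold and 2.07-fold lower, with Pfkp going from 10.8 to 8.75. The enolase genes differed in opposite directions. Eno3, the form of muscle, went from 9.78 to 11.81 (4.09-fold higher) and Eno2, the form of neurons, from 9.05 to 7.83 (2.33-fold lower). Bnip3 and Ndrg1, both induced by hypoxia, were 2.56-fold and 2.27-fold lower. Cholesterol and fatty acid synthesis, ribosomal protein and histone genes gave 0 genes past 2-fold in either direction, out of 28, 40 and 12 measured, where no test was run and 5.2% of all genes were 2-fold apart, with medians of log2 0.13, -0.11 and -0.0041.

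Cell cycle genes differed little apart from a few regulators. Ccnd2, a cyclin of the first gap phase, went from 10.03 to 12.16 (4.35-fold higher) and Myc from 8.84 to 9.88 (2.07-fold higher), while Mycn, the form of early embryo and neural cells, was 1.6-fold lower. The inhibitor Cdkn1a stood at 8.32 and 7.43, 1.85-fold lower. Cdk1 and Mki67, marks of dividing cells, differed by log2 0.49 and 0.43. Of 34 genes, 2 were higher by 2-fold or more and 0 lower, beside 2.58% and 2.62% of all genes.

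Among chromatin genes several members known from pluripotent cells were lower. Besides Dnmt3b, Dnmt3l, a cofactor without enzyme activity, was 2.23-fold lower (8.15 to 7.0), and the maintenance enzyme Dnmt1 had 11.4 and 11.44. Tet2, which oxidises methylcytosine, was 2.06-fold higher (8.57 to 9.61) and Tet1 differed by log2 -0.32. Of 29 Polycomb genes, Cbx7, the chromobox subunit of stem cells, went from 10.39 to 8.49 (3.74-fold lower) and Phc1 from 12.09 to 10.45 (3.12-fold lower), and the others were within 2-fold. Ctcf had 10.61 and 10.76, and Ctcfl, its germ line paralogue, 7.86 and 7.13, with 0 of 14 genes of CTCF and cohesin past 2-fold beside 5.2% of all genes, a count near that share.

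Clustered protocadherins of the beta group, neuronal adhesion proteins, had 18 of 18 differences above 0. Of the 18, 6 were at least 2-fold higher, beside 2.58% of all genes, from Pcdhb21 (4.53 to 6.25) to Pcdhb16 (6.06 to 7.2). Both undifferentiated signals lay within the olfactory receptor range, and Pcdhb21 stayed within it in retinoic acid. Pcdhb21 and Pcdhb3 reached log2 6 only on retinoic acid arrays, and Pcdhb15 only on that of the Ctcfl line. The count of signs is therefore in part set by the filter. The median difference over all genes was log2 -0.04. Of 31 imprinted genes, 3 were at least 2-fold higher, Dcn among them, and 1 lower, beside 2.58% and 2.62% of all genes. Igf2, a fetal growth factor, went from 8.8 to 11.14 (5.07-fold higher), and Zim1, a zinc finger gene, from 8.5 to 11.03 (5.81-fold higher). Magel2 was 2.38-fold lower (10.18 to 8.93). Of the germ line list, Stra8, the retinoic acid target that starts meiosis in germ cells, stood at 6.35 and 6.82, both within the background range, while Zbtb16 and Kit, which also act outside the germ line, were 3.86-fold and 2.34-fold higher.

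Several of the largest differences belonged to genes outside every list. Rasgrp3, an exchange factor for Ras, went from 6.04, within the background range, to 10.01. Ripply3, a corepressor of the pharyngeal region, was 12.2-fold higher (7.3 to 10.91), Igfbp5, which binds insulin-like growth factors, 11.4-fold higher (7.34 to 10.85), and Dach1, a cofactor of eye and limb development, 8.11-fold higher (6.93 to 9.95). On the other side, Efhd1, a mitochondrial calcium-binding protein, was 12.9-fold lower (10.98 to 7.29), the kinase gene Pim2 12-fold lower (11.8 to 8.21) and the forkhead gene Foxi3 11.1-fold lower (10.77 to 7.3). Slc7a7, a subunit of an amino acid exchanger, went from 11.5 to 8.29 (9.22-fold lower), Trh, the precursor of thyrotropin-releasing hormone, from 13.13 to 10.12 (8.08-fold lower), and Stat4, a signal transducer of lymphocytes, from 10.2 to 7.24 (7.81-fold lower). Chchd10, of mitochondrial cristae, and Rassf4, of the Ras association family, were 7.36-fold and 6.64-fold lower. Cyp2b23 and Mup6 were 10.3-fold and 9.66-fold lower, but both belong to families of near-identical genes, so their signals may be shared with relatives.

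The pair of arrays from the Ctcfl line shares no array with the wild-type pair and gave 588 genes (3.21%) higher by 2-fold or more and 274 (1.5%) lower, together 4.71%. Of the 473 genes at least 2-fold higher in wild type, 462 had a difference above 0 in the line, with a median of log2 1.13 there. Of the 479 at least 2-fold lower, 436 had a difference below 0 in the line, with a median of -0.67 there. Over all genes 44.3% of differences in the line were above 0 and 55.7% below. The genes were chosen by the wild-type value, so their wild-type median is not set beside that of the line. In the line, 38 of the higher genes lay below log2 0.25 and 101 of the lower genes above -0.25.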

How the data were processed

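RNA was hybridised to Affymetrix arrays, 1 array for each of 4 conditions, and the wild-type pair was compared. The values used are the authors' deposited log2 signals, made by RMA in Affymetrix Expression Console per the labels, with Transcriptome Analysis Console also named in the submitters' processing notes. Versions and the genome build are not given in the sources used here. They were used as deposited, with no further scaling. For each gene the probe set with 1 symbol and the highest mean over the 4 arrays was taken, and genes reaching log2 6 on any array were compared. Symbols were updated through Entrez IDs, which matched the RefSeq table for 23328 of 23521 probe sets. With 1 array a side no test, p-value or replicate error exists, and array number limits the precision. A 2-fold difference is a description.

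The 48 gene lists (1003 genes) and the members were chosen with earlier results of these data known. Genes were named by rule: up to 8 with the largest difference in each list, any member of a list with at most 20, the 25 highest and lowest of all, and a fixed set that includes Pou5f1, Nanog, Sox2, Ctcf, Gapdh and Actb. Not every gene the rule allows is named, and the choice within it was made with the values known. Others are marked as chosen after their values were seen. Alternatives covered the filter, the scaling, the choice of probe set and the fold threshold. Counting was tested on simulated data. Python 3.11.15, numpy 2.4.6, pandas 2.3.3 and matplotlib 3.10.9 were used.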

Additional observations from a re-analysis of the deposited data

Results flagged for a closer look

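Several genes named above had a 2-fold or larger difference in wild type and the opposite sign in the Ctcfl line. In each case 1 array a side was available, and the difference between the lines was not tested. Twist1, active in crest and mesenchyme, had a log2 difference of 2.39 in wild type and -0.26 in the line, where its signals were 7.74 and 7.48. Rdh10, of retinoic acid synthesis, had 1.75 and -0.09, with line signals of 8.98 and 8.89. Myc had 1.05 and -0.56, with line signals of 9.8 and 9.24. The stress factor Ddit3 had -1.55 and 0.59, with line signals of 8.26 and 8.85, and the phosphatase gene Dusp4 had -1.33 and 0.23. For Blvrb the differences were -1.06 and 0.44, for the synaptic gene Syt1 -1.12 and 0.31, and for the neuronal enolase gene Eno2 -1.22 and 0.08. Of these, the line differences of Rdh10, Twist1, Dusp4, Syt1 and Eno2 are smaller than the technical SD of that line, 0.33.

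Probe sets without an annotated gene stand outside the comparison of genes. Of 10332 of them past the same filter, 750 were at least 2-fold apart in wild type (7.26%), 639 higher and 111 lower in retinoic acid. Among single-symbol genes 5.2% were 2-fold apart.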

How the results depend on the processing

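Under the 9 alternatives tried, the counts of genes at 2-fold stayed between 449 and 484 higher and between 456 and 515 lower when the filter, scaling or probe set was changed. At 1.5-fold the counts were 1355 higher and 1287 lower, and at 3-fold 187 and 151. List medians moved by more than the technical SD in 6 of 336 cases over 48 lists and kept their sign in all 6. With the filter at log2 7 they were 0.97 for clustered protocadherins, 0.62 for hindbrain and spinal cord, 1.37 for Hox A, 1.04 for Hox C and 1.17 for retinoid synthesis and breakdown, since genes of low signal drop out. With the probe set of lowest mean the Hox B median was 1.56. Counts of list members at least 2-fold higher moved in 6 of 336 cases and counts of those lower in 7 of 336. A count was taken as moved if it changed by more than 1.5-fold, or to or from none. Of 2069 values for 298 of the named genes, 25 moved by more than the technical SD. A further 2 reversed, Dpysl3 at -0.16 and Lgr5 at -0.045, both with the probe set of lowest mean. The cause was not tested. No replicate could be left out. No paired analysis was possible because each condition has 1 array.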

Other observations

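The remaining lists are given by their counts beside the shares over all genes compared, of which 2.58% were higher by 2-fold or more and 2.62% lower. Of 24 genes of mesenchyme and epithelial to mesenchymal transition, 8 were at least 2-fold higher and 1 lower, with a median of log2 0.49. Dcn and Lum are among the 8 and reached log2 6 only on retinoic acid arrays. Of 20 collagen genes, 3 were higher and 0 lower, with a median of 0.45. Cadherins outside the clusters gave 5 higher and 3 lower of 31, trophoblast and simple epithelium 4 and 1 of 23, and smooth muscle 3 and 1 of 17. Endothelium and blood had 2 of 14 higher, Kdr and Emcn, and 0 in the Ctcfl line. Emcn reached log2 6 only on the wild-type retinoic acid array, so its sign was set by the filter. Kdr started under the olfactory receptor limit.

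Patterning lists of the brain were small. Forebrain and midbrain had 1 higher and 2 lower of 16, the latter Otx2 and Hesx1, and hindbrain and spinal cord 3 and 1 of 15. Hox cofactors and Cdx had 4 of 13 higher, orphan nuclear receptors 2 higher and 1 lower of 12, the Nodal pathway 1 and 1 of 16, and DNA methylation enzymes 1 and 2 of 12. Germ line genes had 3 higher and 2 lower of 22. Of 18 microRNA genes known from differentiated cells, 3 were higher, the Mir17 cluster genes Mir17, Mir18 and Mir19a, and 0 lower. No hypothesis is offered for any of these values.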
